A study of Mus musculus with 8 samples.

Results

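Gene clusters that encode secreted plasma proteins were examined in mouse liver by the DNA methylation of their HpaII sites. The 5 loci, in coordinates of the mouse build mm9, are Serpina on chr12:104850000-105750000, Alb-Afp on chr5:90850000-91050000, Apoa1-Apoa5 on chr9:46000000-46100000, Apoe-Apoc on chr7:20240000-20310000 and fibrinogen on chr3:82820000-82920000. All HpaII sites inside these bounds that were listed in every sample were taken, which gave 921 of the 1310003 sites of the genome. Of these, 547 lie in Serpina, 110 in Alb-Afp, 110 in Apoa1-Apoa5, 89 in Apoe-Apoc and 65 in fibrinogen. The samples were livers of 8 C57BL/6J mice, 4 on a high-fat diet (HFD) with lingonberries and 4 on the HFD alone, and the comparison asks whether the berries altered hepatic methylation on that diet. Nothing in the labels says whether the 4 samples of a group were caged or processed separately, so the spread between them may be partly technical. Whole liver holds several cell types, and a changed mixture of cells cannot be told apart from a changed methylation within a cell type. Expression was not analysed here.

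HELP-tagging sequences short tags from the ends that HpaII makes at CCGG sites, where this enzyme is blocked by methylation of the inner cytosine, and sets them against tags of MspI, which is not blocked. The m-score places each site between 0, where no HpaII tag was seen (the methylated end), and 100, where HpaII tags far outnumber MspI tags (the unmethylated end). Because a single MspI reference was scaled to the HpaII total of each sample, a score shows how a site stands among all sites of its library. A score of 50 means as many HpaII tags as scaled MspI tags, and it is not a measured share of unmethylated DNA. The libraries held 6094810 to 16061807 HpaII tags in the lingonberry group and 5849119 to 7403697 in the HFD group. Levels are given for the 690 member sites with at least 10 MspI tags, and the 212 of them with a mean of at least 10 HpaII tags are called deep sites. The genome has 920211 and 213262 such sites. The mean is taken over raw tags, so the largest libraries, which are of the lingonberry group, weigh most in the choice of deep sites. Tags were amplified by PCR without molecular identifiers, so depth speaks to counting error only.

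Hepatocytes make most of the proteins of blood plasma, and the genes for them lie in small families that arose by duplication. Alb encodes albumin, the main carrier and osmotic protein of plasma, and its neighbour Afp encodes alpha-fetoprotein, the albumin of the fetus, which is silenced after birth. Apoa1, Apoa4 and Apoa5 encode apolipoproteins of high-density and triglyceride-rich lipoproteins, Apoc3 an inhibitor of triglyceride clearance, Apoc2 the cofactor of lipoprotein lipase, and Apoe the ligand by which remnant particles are taken up. Fga, Fgb and Fgg encode the chains of fibrinogen, the precursor of the fibrin clot. The Serpina genes encode protease inhibitors such as alpha-1-antitrypsin (Serpina1 copies) and the alpha-1-antichymotrypsin group (Serpina3 copies), and carrier proteins such as Serpina6, which binds glucocorticoids. Liver promoters of this kind are often poor in CpG and carry sites for hepatocyte factors such as HNF1.

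The promoters of these genes held few sites that the assay can read. RefSeq promoter sequences of GRCm38.p6, from 250 bases before to 50 after the gene start, were found for 30 of 37 listed genes. Of the 30 genes, 10 had a CCGG at 1 start or more. Counted by promoter, as some genes have several starts, 11 of 35 (31.4%) had a CCGG, against 52.8% of 32851 promoters in that table. No promoter of Alb or Afp did, 1 of 3 in Apoa1-Apoa5 (Apoa4), 3 of 3 in Apoe-Apoc, 3 of 4 in fibrinogen (Fga, Fgb and Plrg1) and 3 of 18 in Serpina (Serpina16, Serpina1b and Serpina3g). The letters GTTAAT, which open the palindromic site of HNF1, were present on either strand in 12 of the 35 member promoters, counting each listed start, and in 7.10% of all promoters. Such a match is a description of the letters and no evidence of binding. The 12 include Alb, Afp, Fga, Fgb, Apoc2 and the 5 genes Serpina1a to Serpina1e. Those 5 are near-identical copies, so they are not independent matches.

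The sequences that follow run 5′ to 3′ on the strand of the gene. Apoc2, the pair of Apoe starts and Plrg1 are shown because the spacing of their CCGG letters could be matched to HpaII sites in the files. Each CCGG is in capitals, and coordinates are those of GRCm38.p6. Plrg1 encodes a splicing factor of all cells and follows Fgb in the fibrinogen locus.
Apoc2 (chr7:19677892-19678191, minus strand): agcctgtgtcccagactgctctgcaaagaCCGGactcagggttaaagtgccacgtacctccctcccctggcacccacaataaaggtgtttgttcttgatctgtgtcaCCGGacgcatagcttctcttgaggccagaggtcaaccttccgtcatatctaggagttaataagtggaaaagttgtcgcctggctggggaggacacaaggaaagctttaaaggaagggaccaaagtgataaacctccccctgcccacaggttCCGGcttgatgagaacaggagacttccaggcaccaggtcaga
Apoe, upstream start (chr7:19698572-19698871, minus strand): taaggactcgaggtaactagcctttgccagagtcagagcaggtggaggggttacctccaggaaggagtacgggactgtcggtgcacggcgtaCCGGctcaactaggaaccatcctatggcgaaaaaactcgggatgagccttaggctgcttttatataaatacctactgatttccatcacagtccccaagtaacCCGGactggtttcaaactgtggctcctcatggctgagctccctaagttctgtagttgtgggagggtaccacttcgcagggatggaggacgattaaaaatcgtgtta
Apoe, downstream start (chr7:19698349-19698648, minus strand): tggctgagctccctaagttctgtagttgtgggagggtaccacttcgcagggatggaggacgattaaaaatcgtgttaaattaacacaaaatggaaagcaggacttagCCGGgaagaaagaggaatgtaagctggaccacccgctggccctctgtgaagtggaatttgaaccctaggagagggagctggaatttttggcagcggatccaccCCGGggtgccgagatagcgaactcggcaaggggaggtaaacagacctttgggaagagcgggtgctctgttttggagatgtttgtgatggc
Plrg1 (chr3:83055288-83055587, plus strand): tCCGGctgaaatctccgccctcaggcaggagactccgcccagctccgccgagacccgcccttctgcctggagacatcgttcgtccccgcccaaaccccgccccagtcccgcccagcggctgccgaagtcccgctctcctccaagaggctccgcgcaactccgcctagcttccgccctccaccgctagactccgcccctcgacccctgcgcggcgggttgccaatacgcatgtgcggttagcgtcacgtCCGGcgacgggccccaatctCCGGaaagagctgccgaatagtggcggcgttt

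The next promoters hold at most 1 CCGG, in capitals, or none. A single CCGG has no spacing to match, so these promoters were not placed among the listed sites. Their distance to a placed promoter of the same locus was not used to place them. Alb is shown with its GTTAAT in capitals in place of a CCGG.
Fga (chr3:83025903-83026202, plus strand): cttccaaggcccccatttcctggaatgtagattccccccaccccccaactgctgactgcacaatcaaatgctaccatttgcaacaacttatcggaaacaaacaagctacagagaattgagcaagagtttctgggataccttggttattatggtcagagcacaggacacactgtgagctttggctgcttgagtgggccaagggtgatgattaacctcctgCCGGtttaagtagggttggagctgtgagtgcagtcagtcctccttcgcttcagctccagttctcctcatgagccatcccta
Fgb (chr3:83049814-83050113, minus strand): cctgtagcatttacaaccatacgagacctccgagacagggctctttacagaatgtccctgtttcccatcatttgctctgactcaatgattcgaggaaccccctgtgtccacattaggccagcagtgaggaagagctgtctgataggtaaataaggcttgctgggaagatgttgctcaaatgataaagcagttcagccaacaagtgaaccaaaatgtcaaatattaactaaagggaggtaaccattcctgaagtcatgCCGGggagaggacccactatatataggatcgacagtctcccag
Apoa4 (chr9:46240594-46240893, plus strand): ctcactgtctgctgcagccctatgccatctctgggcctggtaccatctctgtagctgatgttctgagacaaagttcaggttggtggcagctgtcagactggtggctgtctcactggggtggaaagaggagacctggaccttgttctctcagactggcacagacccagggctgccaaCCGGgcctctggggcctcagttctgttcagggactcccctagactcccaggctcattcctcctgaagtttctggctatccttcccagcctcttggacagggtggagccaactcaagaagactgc
Serpina1b (chr12:103738140-103738439, minus strand): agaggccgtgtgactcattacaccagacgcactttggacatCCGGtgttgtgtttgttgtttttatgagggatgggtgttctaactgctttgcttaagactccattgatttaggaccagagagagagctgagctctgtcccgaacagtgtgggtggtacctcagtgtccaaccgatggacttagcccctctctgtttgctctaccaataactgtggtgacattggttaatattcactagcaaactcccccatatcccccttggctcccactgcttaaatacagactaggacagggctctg
Alb (chr5:90460620-90460919, plus strand): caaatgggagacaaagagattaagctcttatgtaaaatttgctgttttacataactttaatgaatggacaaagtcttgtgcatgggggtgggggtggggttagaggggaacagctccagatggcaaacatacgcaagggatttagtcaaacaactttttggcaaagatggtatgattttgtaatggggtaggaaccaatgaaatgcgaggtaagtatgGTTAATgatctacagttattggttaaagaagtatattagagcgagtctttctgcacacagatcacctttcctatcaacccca

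The 3 CCGG of Apoc2 are spaced by 151 and 229 bases, counted from the first, which was found at 1 place in the locus and at 12 in the genome. The 3 of Plrg1 (247 and 267 bases) matched 1 place in the locus and 10 in the genome. Apoe has 3 starts in the table, of which the first has no CCGG. The spacing of 102 bases at its upstream start and of 103 at its downstream start each matched 1 place in the locus, against 2728 and 2669 in the genome. The matched sites of Apoe and Apoc2 lay 20744 and 20505 bases apart in the files, as they do in the table, and those of the pair of Apoe starts lay 239 bases apart in both. The pair of CCGG of Serpina3g matched 2 places in the Serpina locus and was not placed. No mm9 gene annotation was used here, so exons and introns are not given for any site.

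All 10 placed promoter sites averaged above 50 over the 8 samples. At Apoc2 the mean m-score over the 8 samples was 72.7 at position +8 (chr7:20263281), 87.6 at -143 (chr7:20263432) and 72.3 at -221 (chr7:20263510). The site at -143 ran from 84.7 to 90.2 with lingonberries and from 86.2 to 89.1 on HFD alone, the least spread of these sites. At Apoe the sites at -158 of the upstream start (chr7:20284127) and -143 of the downstream start (chr7:20283889) averaged 80.7 and 80.2.

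The Apoe site at -56 of the upstream start (chr7:20284025) read 72.7, 64.9, 69.8 and 73.7 in the lingonberry livers and 41.8, 54.8, 69.7 and 66.9 in the HFD livers. The groups overlap, as the lowest lingonberry value falls under the highest 2 HFD values, and the difference of 11.97 ± 6.30 (SE) had an adjusted p of 0.873 by limma. At -40 of the downstream start (chr7:20283786) the values were 76.9, 72.05, 80.3 and 78.2 against 72.8, 64.97, 71.5 and 68.6. Here 3 of 4 lingonberry livers were above all HFD livers, with a difference of 7.42 ± 2.47 (SE) and the same adjusted p of 0.873 by limma. The neighbouring site at -143 lay the other way, lower by 6.08 with lingonberries, and overlapped too.

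At Plrg1 the site at -249 (chr3:82859213) read 66.5, 75.8, 63.5 and 77.5 with lingonberries and 78.8, 77.4, 88.8 and 76.2 on HFD alone, and the groups overlap. The sites at -2 (chr3:82859460) and +18 (chr3:82859480) averaged 78.9 and 70.7. Both rest on few MspI tags, 9 and 12, and single samples ranged from 58.8 to 94.3 at the first and from 47.5 to 87.4 at the second.

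**Figure D1:**
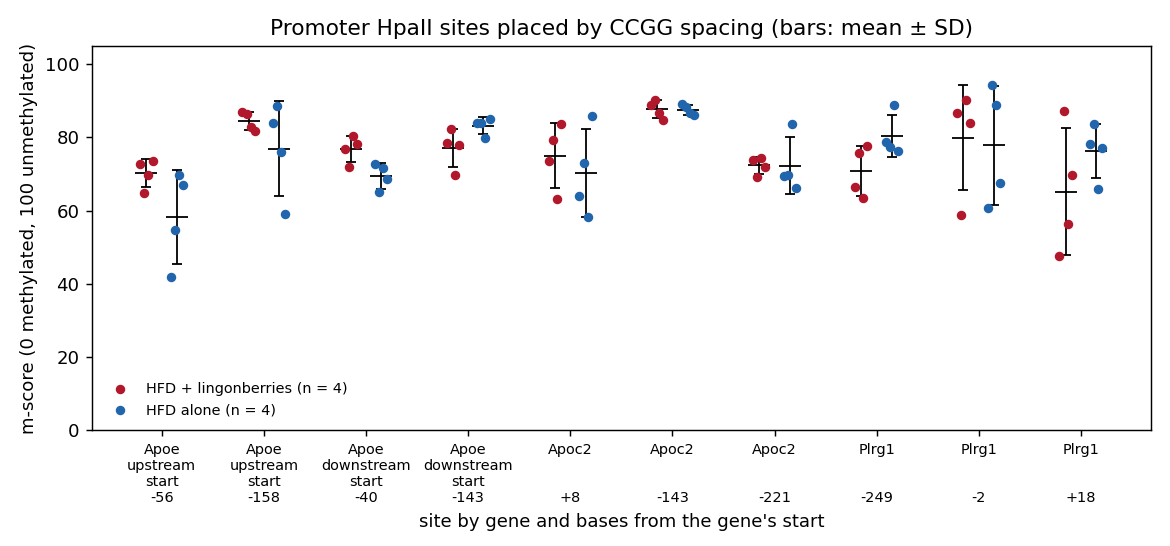
M-score (vertical axis, 0 methylated to 100 unmethylated) of the 10 promoter sites placed by CCGG spacing, by gene and bases from its start. Each point is a liver, the bars are mean ± SD of 4, and the groups overlap at every site.

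Across the loci, methylation fell into different levels. The median site scored 67.5 in Apoe-Apoc, 40.5 in fibrinogen, 25.8 in Apoa1-Apoa5, 24.9 in Alb-Afp and 22.3 in Serpina, and 17.1 over the genome. Of the Apoe-Apoc sites, 31.4% had a mean score of 75 or above and 14.3% one below 25. In Serpina these shares were 10.2% and 52.4%, and in the genome 11.7% and 58.7%. Sites between the 2 bounds made up 40.1% of the member sites and 29.6% of genome sites. A site in this range is cut in some of the tissue's DNA and not in the rest, or is measured with few tags, and the 2 cannot be told apart at a shallow site.

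**Figure D2:**
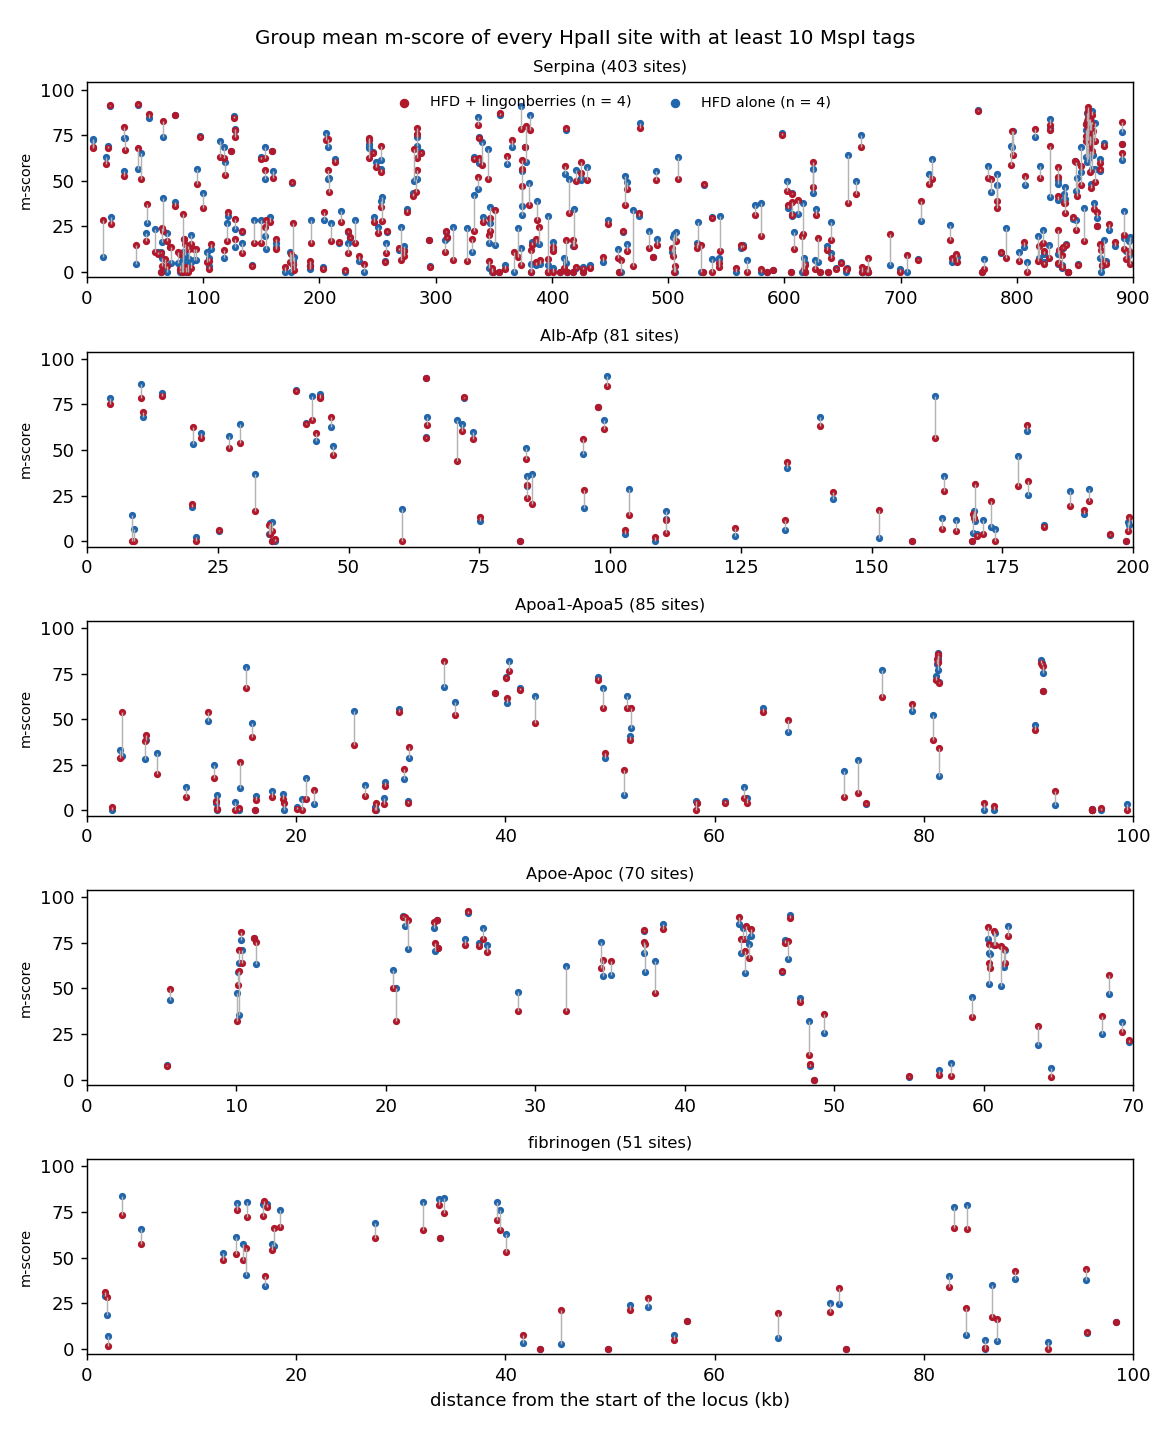
Group mean m-score of each HpaII site with at least 10 MspI tags (vertical axis) by distance from the start of its locus in kb, for both diets, with a line joining the 2 means of a site. High and low stretches lie at the same places in both groups, as in fibrinogen, where 20 of 25 sites before 40 kb and 3 of 26 after it reach 50.

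Among sites with few or no neighbours, the loci had a larger share with a mean score of at least 50 than the genome. Dense CCGG is typical of CpG islands, which are mostly unmethylated, while isolated sites are mostly methylated in mammalian DNA. Of the isolated sites, those with no other listed site within 500 bp, 72 of 258 (27.9%) in the loci averaged at least 50, against 9.78% of 340345 in the genome. The share was 41.2% in Alb-Afp (14 of 34), 33.3% in Apoa1-Apoa5 (8 of 24), 31.8% in fibrinogen (7 of 22), 25.0% in Apoe-Apoc (3 of 12) and 24.1% in Serpina (40 of 166). With 1 to 4 neighbours, the share was 38.4% in the loci and 21.0% in the genome, led by Apoe-Apoc with 76.7% (33 of 43). With 5 or more neighbours the members were close to the genome, at 83.7% (41 of 49) against 87.3%. Sites of a locus share neighbours and tissue, so these shares are descriptions without a test.

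**Figure D3:**
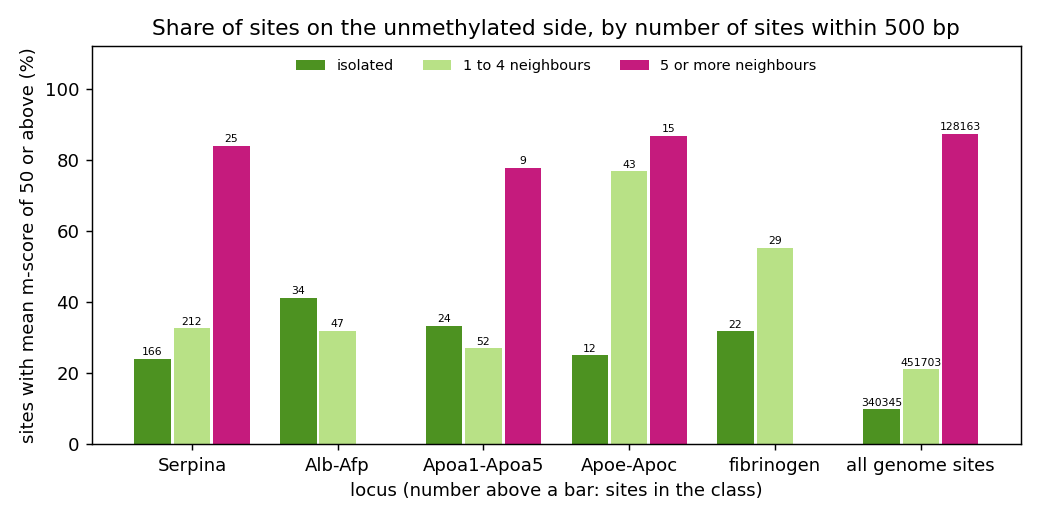
Percent of sites whose m-score averaged at least 50 (vertical axis) in each locus and in the genome, by the number of other sites within 500 bp. The number above a bar counts its sites. Isolated sites reach 24.1% to 41.2% in the loci and 9.78% in the genome.

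The Alb-Afp locus was divided along its length. The first 100 kb held 26 of 46 sites at 50 or above, and the last 100 kb 3 of 35. The boundary was placed after the profile was seen. In the order of RefSeq genes, Alb comes first, followed by Afp, but no site of this locus was placed against either gene. The stretches are therefore not to be read as Alb and Afp. Site density was alike in the stretches, with 0.848 and 0.800 neighbours per site. The 3 highest deep sites all lay in the first stretch, at chr5:90914839 (89.4), chr5:90949366 (87.9) and chr5:90890000 (82.8). At chr5:90914839 the livers read 92.7, 89.3, 87.9 and 88.1 with lingonberries and 92.5, 89.3, 88.9 and 86.8 on HFD alone, which overlap. This locus had no dense cluster of the island kind. Its largest clusters, 2 in number, held 5 sites each. The first by position, at chr5:90884853-90885862, lay near the methylated end at every site, with scores of 0 to 8.12. Scores of the other are not given here.

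In Apoa1-Apoa5 the highest sites belonged to a single cluster of 9 sites at chr9:46080874-46081465. Its sites scored 26.5 to 85.9, with 85.9 at chr9:46081377, 84.0 at chr9:46081306 and 83.0 at chr9:46081364. The cluster mean was 70.1 with lingonberries and 69.6 on HFD alone. At chr9:46081306 the livers read 88.2, 81.4, 82.0 and 88.9 against 86.0, 82.2, 81.2 and 82.5, which overlap. The rest of the locus alternated, with the 10 kb window from chr9:46040001 at a mean of 62.2 and that from chr9:46020001 at 14.3.

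Apoe-Apoc was the least methylated locus, and this lay at sites with neighbours. Of its sites with 1 to 4 neighbours 33 of 43 averaged at least 50, but of its isolated sites 3 of 12 (25.0%). Between chr7:20250001 and chr7:20290000, 38 of 48 sites were at 50 or above, while the next 10 kb window, from chr7:20290001, averaged 12.7. The highest deep sites were chr7:20265520 (91.9), chr7:20261137 (89.4) and chr7:20287030 (89.3). At chr7:20265520 the livers read 93.1, 91.2, 91.2 and 93.4 with lingonberries and 91.5, 94.4, 87.1 and 92.9 on HFD alone, which overlap. The largest cluster, at chr7:20250065-20252072, held 12 sites, of which the 8 with at least 10 MspI tags scored 39.8 to 79.0 each.

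In fibrinogen the change of level fell beside the placed Plrg1 promoter. The 10 kb window with the highest mean, from chr3:82850001 (73.2), spans its 3 sites, but the site at -2, with 9 MspI tags, is not in that mean. The next window, from chr3:82860001, had the lowest mean of the locus (15.0). Before chr3:82860000 the mean site had 1.52 neighbours and after it 0.423, so site density differed between the stretches too, and its part was not tested. The 3 highest deep sites were chr3:82853604 (80.5), chr3:82836959 (80.2) and chr3:82854146 (78.6). At chr3:82836959 the livers read 87.3, 79.8, 74.7 and 83.2 against 82.6, 74.2, 78.8 and 80.8, which overlap.

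Serpina was the longest locus, with the lowest median score of the 5 (22.3). Its mean score over the 8 samples, 32.80, was close to the 32.75 of Apoa1-Apoa5. Of its 547 sites, 113 (20.7%) carried tags shared with other sites, against 4.75% of genome sites. The near-identical copies of Serpina1 and Serpina3 can exchange tags, and a score there may belong to several copies. Its largest cluster, 24 sites at chr12:105709259-105711855, gave 20.5% of the tags of the locus. The 19 sites of the cluster with at least 10 MspI tags scored 66.3 to 89.2 each. Over them the cluster averaged 81.2, 80.0, 80.0 and 82.2 in the lingonberry livers and 79.5, 80.0, 77.2 and 77.5 in the HFD livers, which overlap. Without it the locus mean over the 8 samples was 30.5. The highest deep sites were chr12:104894252 (91.7, with 1 neighbour) and chr12:104869401 (91.4, isolated), outside the cluster, and chr12:105711036 (89.2), inside it. Of the 166 isolated sites of the locus, 7 averaged 75 or above.

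Locus means on the 2 diets overlapped. In Serpina the mean m-score was 32.9, 30.2, 33.9 and 32.1 with lingonberries and 31.5, 34.2, 34.6 and 33.0 on HFD alone, or 32.3 ± 1.56 against 33.3 ± 1.37 (SD, n = 4). In Alb-Afp it was 33.3, 30.01, 32.9 and 33.7 against 32.8, 37.3, 35.8 and 33.4, or 32.5 ± 1.67 against 34.8 ± 2.09 (SD, n = 4), the largest gap of the 5. In Apoa1-Apoa5 it was 33.8, 29.4, 32.9 and 33.2 against 33.2, 32.9, 32.3 and 34.4. Lingonberry sample 2 was lowest in these 3 loci. In Apoe-Apoc it was 57.5, 59.1, 60.05 and 59.9 against 57.3, 59.6, 58.8 and 58.8, the 1 locus with a higher lingonberry mean (59.1 ± 1.14 against 58.6 ± 0.955, SD, n = 4, a difference of 0.523). In fibrinogen it was 39.2, 38.4, 42.4 and 39.7 against 41.6, 42.3, 40.8 and 41.2. The groups overlap in all 5 loci. With at least 50 MspI tags per site the difference turned positive in Serpina (0.226), Alb-Afp (0.194) and fibrinogen (1.96). Over the genome the mean was 28.5 ± 0.399 against 29.8 ± 0.612 (SD, n = 4), a shift of -1.36 that differences within the loci (-2.35 to 0.523) are read against.

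**Figure D4:**
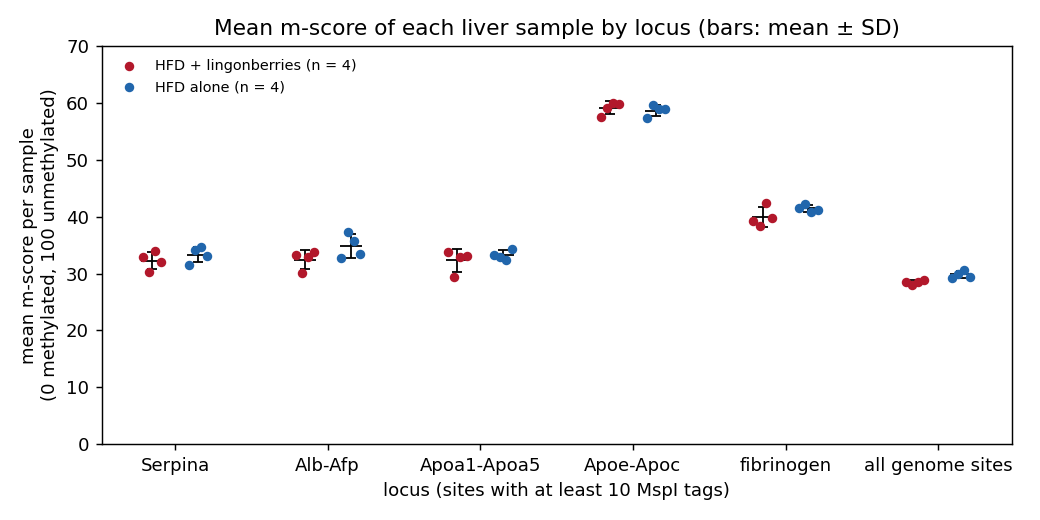
Mean m-score of each liver (vertical axis) over the sites with at least 10 MspI tags, by locus and for the genome; points are livers and bars mean ± SD of 4. The groups overlap in each locus, with Apoe-Apoc near 59 in both.

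Diet differences varied with site density. In Alb-Afp the 34 isolated sites averaged 31.7 ± 2.60 with lingonberries and 36.4 ± 1.88 on HFD alone (SD, n = 4), with every lingonberry liver below every HFD liver. Such an order was met in 10.8% of 5086 windows of 100 kb with at least 20 isolated sites, so it is not rare in these data. The difference at isolated sites was -3.07 over all members and -2.80 over the genome. At sites with 5 or more neighbours it was 2.37 and 1.95. There every lingonberry liver was above every HFD liver in Serpina (25 sites, 69.7 ± 2.92 against 66.6 ± 0.356) and over all members (49 sites, 69.5 ± 1.41 against 67.1 ± 1.13, SD, n = 4), while the genome groups overlap. Of 2245 windows of 100 kb with at least 20 such sites, 13.0% show that order.

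No member site passed the test between diets. By limma with adjustment over all 1310003 sites, 0 of 921 had an adjusted p below 0.05, and the smallest was 0.412, against 176 sites (0.0134%) in the genome. At an unadjusted p below 0.05 there were 39 members, against 4.17% of genome sites. Of the 39, 23 were lower with lingonberries (genome 2.54%) and 16 higher (genome 1.63%). A fit of only the sites that average 10 tags called 0 members by limma (genome 0.0%), and a fit of their log2 tags per 1000000 called 0 as well (genome 0.000449%). Of the 212 deep sites, 17 had an unadjusted p below 0.05 in the fit of all sites, against 6.08% in the genome. Among the deep sites, groups did not overlap at 2 lower sites (genome 1.35%) and 3 higher sites (genome 1.88%) of 212.

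Those 5 lie in Serpina and Apoe-Apoc. At chr12:105715550 the lingonberry livers read 78.6, 70.1, 80.8 and 80.3 and the HFD livers 59.6, 65.1, 61.3 and 70.05. All 4 lingonberry values are higher, by 13.45 ± 3.31 (SE) on average, at an adjusted p of 0.873 by limma. At chr12:105223400 they read 85.3, 79.4, 81.8 and 66.9 against 90.7, 90.8, 92.2 and 90.2, with the HFD livers close together and sample 4 of the lingonberry group farthest below them. This site has 10 MspI tags, with 23, 10, 7 and 6 HpaII tags in the lingonberry livers and 16, 15, 16 and 16 in the HFD livers. The 3 in Apoe-Apoc were chr7:20266469 (-5.97), chr7:20261301 (4.70) and chr7:20283657 (4.04), in both directions.

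Deep sites of fibrinogen and Alb-Afp were more often lower with lingonberries. The lower difference was found at 16 of 20 deep sites in fibrinogen and 15 of 19 in Alb-Afp, 18 of 26 in Apoa1-Apoa5, 54 of 102 in Serpina and 18 of 45 in Apoe-Apoc, against 43.8% of deep sites in the genome. The median difference of these sites was -7.21 in fibrinogen, -2.03 in Alb-Afp, -1.16 in Apoa1-Apoa5, -0.24 in Serpina and 0.75 in Apoe-Apoc, and 0.70 in the genome. The genome values mix all densities, while fibrinogen and Alb-Afp have no site with 5 or more neighbours among those with at least 10 MspI tags. Among such genome sites the mean difference was 1.95 with 5 or more neighbours, -1.22 with 1 to 4 and -2.80 when isolated. The part of density was not tested. Nor was that of the limit on raw HpaII tags, which sites higher with lingonberries can pass more easily because the largest libraries are of that group. Of genome windows of 10 kb, which carry no such limit, 66.3% were lower. In each of the 5 loci the site with the smallest p among its lower deep sites was not called. At chr9:46076031 in Apoa1-Apoa5 the livers read 61.6, 69.4, 60.3 and 57.0 with lingonberries and 75.05, 82.7, 83.4 and 66.4 on HFD alone, overlapping by 1 sample each, and at chr5:90892977 in Alb-Afp 67.3, 59.8, 73.2 and 66.1 against 81.5, 78.5, 87.6 and 70.5.

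In fibrinogen the groups separated in 2 of 5 measures. Sites with a score of 75 or above made up 15.7%, 13.7%, 15.7% and 13.7% of its 51 sites in the lingonberry livers and 25.5%, 23.5%, 27.5% and 23.5% in the HFD livers. All lingonberry values are lower, and 0.728% of 11678 windows of 100 kb show such an order in that direction. Those windows mix all densities, and windows of like density were not compared. In the genome 66798 of the 108080 sites at 75 or above have 5 or more neighbours, the class that averaged higher with lingonberries. Fibrinogen has no such site among its 51. The share is 1 of 5 measures compared in each of the 5 loci. These measures rest on the same tags of the same livers, as do the deep sites and 10 kb windows of the locus, so they are not independent. The share of sites below 25 overlapped (37.7% against 38.2%), and the median score, which overlapped too, was higher with lingonberries (42.7 ± 3.80 against 40.2 ± 6.82, SD, n = 4). Thinned to the lowest depth of the 8 libraries the shares were 14.7% ± 1.13 and 23.5% ± 2.77 (SD, n = 4), again without overlap. Summed HpaII tags were 54.05, 45.7, 53.7 and 49.96 per 1000000 against 57.2, 59.8, 69.6 and 55.8, also without overlap, an order found in 7.85% of 16212 windows. Beyond 40 kb the mean score was 21.4 ± 3.03 against 21.0 ± 2.45, and in the first 40 kb 59.2 ± 2.06 against 62.8 ± 1.34 (SD, n = 4).

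In windows of 10 kb no difference passed the test either. Of the 100 windows tested, 67 were lower and 33 higher with lingonberries (66.3% lower in the genome). By limma 0 of the 100 had an adjusted p below 0.05 (genome 0.0% of 115789), and 6 had an unadjusted p below 0.05, against 7.64%. The groups did not overlap in 5 lower windows (genome 3.45%) and 1 higher (genome 0.702%). The smallest p belonged to the fibrinogen window from chr3:82850001, at 66.7, 71.5, 70.6 and 68.2 against 76.6, 82.0, 74.1 and 75.7. This window spans the Plrg1 promoter sites, of which the one at -2 is not in its mean. It is lower by 7.88 ± 1.85 (SE), with an adjusted p of 0.503 by limma. The window from chr9:46070001 in Apoa1-Apoa5 stood at 28.1 ± 2.82 against 36.8 ± 1.49 (SD, n = 4), and that from chr7:20300001 in Apoe-Apoc, the higher one, at 56.1 ± 2.48 against 52.5 ± 0.984.

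**Figure D5:**
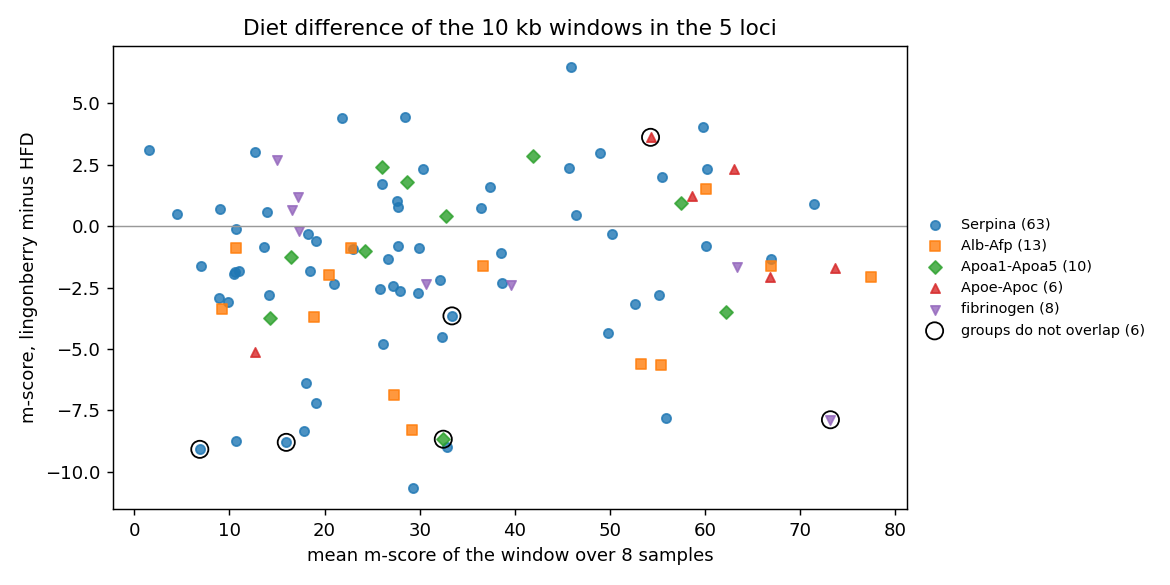
Difference in mean m-score, lingonberry minus HFD (vertical axis), of the 100 windows of 10 kb against their mean over 8 samples. Circles mark the 6 windows whose groups do not overlap, 5 below 0 and 1 above.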

How the data were processed

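HELP-tagging data of 8 livers were used as the authors deposited them, with 1 table per sample of HpaII sites on mm9. Per the file headers each site has an m-score, a score from 0 to 100, and a conf value, read as a signal; their meaning as the angle and length of a vector of HpaII and MspI tags was worked out from the deposited values. The submitters' processing notes name mm9 and CASAVA. How tags were aligned is not given in the sources used here. Tag numbers were recovered from angle and length, whole within 0.02 at 96.6% to 97.1% of sites. Differences were tested with limma 3.58.1 in R 4.3.3 (empirical Bayes with trend, Benjamini-Hochberg adjustment, threshold 0.05) over all sites and over 10 kb windows with at least 3 sites. The sites named are the 3 highest deep sites of each locus and the smallest p in each direction; others, and the divided stretches, were chosen after their values were seen. Alternatives were other MspI minimums, fits on deep sites and on log2 tags per 1000000 (pseudocount 0.5), each sample left out, and, chosen after seeing the data, 50 kb windows. On simulated data with 4-fold changes the fit of all sites recovered 14% of 200 changed sites (28) with 221 false calls, that of sites with a mean of 10 tags 60% with 0, and that of windows 93% with 11. The simulated tags carried counting error alone, without variation between animals, and the changed sites were all deep. Recovery and false calls in the livers may therefore differ. The 176 genome calls of the fit of all sites are to be read with the false calls of that fit in mind. The loci, gene list and tests were chosen with earlier results of these data known. Promoter letters come from RefSeq (GRCm38.p6).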

Additional observations from a re-analysis of the deposited data

Results flagged for a closer look

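Of 74 groups of 4 samples examined for a value far from the rest, 2 had one, where chance gives about 1 in 20. At chr9:46081364 in Apoa1-Apoa5, lingonberry sample 2 had an m-score of 90.8, while the other lingonberry samples lay between 76.6 and 78.8. At chr3:82838475 in fibrinogen, lingonberry sample 3 had an m-score of 72.2, while the others lay between 64.9 and 65.6.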

How the results depend on the processing

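With at least 50 MspI tags per site, the locus mean difference (lingonberry minus HFD) became 0.194 in Alb-Afp on 7 sites, -2.54 in Apoa1-Apoa5 on 9 and 1.96 in fibrinogen on 5; few sites remain. Leaving out each sample in turn gave -1.66 to -0.383 in Serpina, -3.02 to -1.53 in Alb-Afp, -1.38 to 0.0631 in Apoa1-Apoa5, 0.0769 to 1.06 in Apoe-Apoc and -2.35 to -1.02 in fibrinogen. The count of member sites called was 0 to 1. The 1 call, without HFD sample 4, was chr5:90858682 in Alb-Afp, with an adjusted p of 0.0229 by limma, and it has 0 lingonberry tags and 3 HFD tags. The count of 10 kb windows called was 0 to 0. The other alternatives for these results (80) kept their side of the threshold or moved by less than the sample spread, as did all 225 at the named sites. Within that spread the sign turned in Serpina with at least 50 MspI tags (0.226) and in Apoa1-Apoa5 with at least 1 (0.389). In 50 kb windows, chosen after seeing the data, 0 of 26 were called by limma (0 of 47941 in the genome), and 5 had an unadjusted p below 0.05, 4 in Serpina and 1 in Alb-Afp, all lower, against 11.9% of genome windows (11.4% lower). No paired analysis was possible because the labels give no replicate numbers that link samples of the groups. Of the 921 member sites, 212 reach both 10 MspI tags and a mean of 10 HpaII tags, and the others rest on fewer.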
